A study of Mus musculus with 4 samples.

Results

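The genes of RNA polymerase II, of Mediator and of the general transcription factors were followed in cultured mouse keratinocytes after ultraviolet B (UVB) irradiation. They were chosen by symbol: the subunits Polr2a to Polr2m, the Mediator genes named Med with a number, the general factor genes named Gtf2, the TBP-associated factor genes named Taf with a number, and Tbp. Probe sets with exactly 1 such symbol were kept, and the brightest of them over the 4 arrays stood for its gene. This gave 80 genes from 148 probe sets, out of 18193 genes with a symbol of their own, and 76 of the 80 averaged no less than 24.9 units. That value, the median over probe sets of mean signal, was used as the floor and is no detection call. Gtf2a1l, Med12l, Taf7l and Med9os lay below it. Med9os, an RNA from the opposite strand of Med9, matched the symbol pattern but is no Mediator subunit. A further 6 probe sets carry a symbol of this kind together with another gene's and were not used, so Polr2k, Polr2l and Taf9 have no value here.

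The cells were primary keratinocytes, the epithelial cells of the epidermis, isolated from newborn C57BL/6 mice. The groups were p38a-KO cells taken 4 h after UVB at 75 mJ/cm2, WT cells taken 4 h after the same dose, p38a-KO cells without irradiation and WT cells without irradiation, with 1 Affymetrix 3′ expression array each. The sources used here do not say how the p38 alpha gene was deleted or whether animals were pooled, and no mock-treated sample at 4 h is named. The unirradiated arrays are therefore also the earlier time point, and UVB, handling and 4 h in culture cannot be told apart.

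The array total and the labels set limits on every value. Median signal over the array was 18.7 units in irradiated KO-labelled and 18.7 in irradiated WT cells, against 34.5 in unirradiated KO-labelled and 30.3 in unirradiated WT cells. The median log2 UVB effect of all 11379 genes tested was -0.75 as deposited, 0.07 after quantile normalization and 0.31 after median centring of the arrays, so members are also given relative to that shift. The 18 control probe sets for RNA added at hybridisation moved by a median of 0.12 in KO-labelled and 0.01 in WT cells as deposited. A fall in signal of a bulk culture cannot tell fewer cells of a type from less RNA per cell. Mapk14, the gene of p38 alpha, read 647 units in irradiated KO-labelled and 293 in irradiated WT cells, against 1449 in unirradiated KO-labelled and 985 in unirradiated WT cells. It was not lower in cells labelled KO, and a 3′ probe set outside the deleted part would not check the label, so these samples are called KO-labelled. All 9 measured keratinocyte markers were at or above the floor on all 4 arrays, while 4 of 6 leukocyte and 3 of 5 endothelial markers were below it on every array. Of the fibroblast markers 6 of 7, and of the melanocyte markers 5 of 6, were at or above the floor on all arrays. The fibroblast markers summed to 3524 units in irradiated KO-labelled and 2022 in irradiated WT cells, against 5195 in unirradiated KO-labelled and 2669 in unirradiated WT cells. The melanocyte markers summed to 5569.7 units in irradiated KO-labelled and 4761 in irradiated WT cells, against 8469 in unirradiated KO-labelled and 6088 in unirradiated WT cells. These sums move with both irradiation and genotype, and their part in the results below was not tested.

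RNA polymerase II transcribes the protein-coding genes. TFIID, built from TBP and its TAF proteins, recognises the promoter, TFIIA and TFIIB hold it there, TFIIF brings the polymerase, and TFIIE and TFIIH open the DNA and phosphorylate the polymerase's C-terminal tail. Mediator is the large complex that carries signals from DNA-bound activators to this machinery, with a head, a middle and a tail around the Med14 scaffold and a kinase module that comes and goes. UVB makes lesions in DNA at which elongating polymerase II stalls, and the cell's response to UVB includes a general pause in transcription.

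The promoters of the members at both ends of the UVB response are shown because these genes encode the proteins that read such promoters. They are the 3 members with the lowest and the 3 with the highest UVB effect among those with a single promoter window in RefSeq's mouse table (GRCm38.p6), each as the 250 bases before the transcript start of that window, 5′ to 3′ on the gene's strand. For Taf10 this start lies inside the gene as RefSeq spans it, so its printed bases begin upstream of the gene and run into it. Capitals mark matches, on either strand, to TATAAA (the TATA box that TBP binds), CCAAT (a box bound by the factor NF-Y), GGGCGG (the GC box), CCGGAAG (an ETS factor motif) and AAGATGGCG (a YY1 motif), and neighbouring capitals can belong to adjoining matches.
Among the members that fell most are Gtf2e1 (chr16:37539790-37540039, minus strand), Taf4 (chr2:179976647-179976896, minus strand) and Tbp (chr17:15499638-15499887, plus strand).
Gtf2e1: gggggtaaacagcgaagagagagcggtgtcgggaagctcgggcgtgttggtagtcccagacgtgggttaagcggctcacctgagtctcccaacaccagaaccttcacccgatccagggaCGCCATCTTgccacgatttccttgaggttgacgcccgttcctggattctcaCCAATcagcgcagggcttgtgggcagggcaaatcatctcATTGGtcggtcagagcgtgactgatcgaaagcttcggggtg
Taf4: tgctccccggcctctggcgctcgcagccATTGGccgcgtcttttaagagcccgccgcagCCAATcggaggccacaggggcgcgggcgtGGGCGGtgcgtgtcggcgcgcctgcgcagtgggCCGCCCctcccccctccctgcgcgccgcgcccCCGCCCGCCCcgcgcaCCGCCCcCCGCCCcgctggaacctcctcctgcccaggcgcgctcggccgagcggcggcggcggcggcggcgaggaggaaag
Tbp: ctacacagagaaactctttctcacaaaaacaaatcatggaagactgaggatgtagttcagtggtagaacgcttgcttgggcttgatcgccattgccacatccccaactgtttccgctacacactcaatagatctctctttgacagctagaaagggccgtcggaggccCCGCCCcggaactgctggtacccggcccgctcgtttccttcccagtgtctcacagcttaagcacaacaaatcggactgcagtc
At the other end are Polr2a (chr11:69758634-69758883, minus strand), Taf13 (chr3:108571449-108571698, plus strand) and Taf10 (chr7:105744339-105744588, minus strand).
Polr2a: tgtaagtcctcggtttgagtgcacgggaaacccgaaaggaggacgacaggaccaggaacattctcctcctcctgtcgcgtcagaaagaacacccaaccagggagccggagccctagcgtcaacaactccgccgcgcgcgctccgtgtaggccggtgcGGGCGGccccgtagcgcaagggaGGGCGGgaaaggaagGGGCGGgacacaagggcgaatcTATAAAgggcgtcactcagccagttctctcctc
Taf13: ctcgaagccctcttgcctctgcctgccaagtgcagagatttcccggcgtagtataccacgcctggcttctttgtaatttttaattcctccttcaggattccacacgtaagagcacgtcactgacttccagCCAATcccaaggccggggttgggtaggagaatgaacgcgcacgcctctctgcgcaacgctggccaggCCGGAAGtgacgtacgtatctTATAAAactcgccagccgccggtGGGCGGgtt
Taf10: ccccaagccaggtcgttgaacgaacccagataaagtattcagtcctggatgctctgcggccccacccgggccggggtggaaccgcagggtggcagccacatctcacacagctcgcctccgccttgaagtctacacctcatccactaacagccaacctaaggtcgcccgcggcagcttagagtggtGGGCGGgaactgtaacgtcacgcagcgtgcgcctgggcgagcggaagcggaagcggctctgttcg

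Polr2a and Taf13 each had TATAAA at the usual distance before the start, with its first base at -33 and -32. None of the other 4 windows held it. Over the full RefSeq windows, from 250 bases before to 50 after the start, 84 windows of 70 members were searched. TATAAA was in 14.3% of them, against 7.39% of the windows of all genes tested and 13.6% of all windows. CCGGAAG was in 31%, against 17.5% and 8.86%. AAGATGGCG was in 5.95%, against 2.97% and 1.4%. GGGCGG was in 63.1%, against 62.7% and 35.7%, and CCAAT in 34.5%, against 37.6% and 37.4%. A palindromic motif of the factor NRF1 was in 0 member windows, against 1.99% and 0.971%. As a description without a test, the 11 tested members with TATAAA had a median UVB effect of -0.45, and the 55 without it -0.81. The 5 with AAGATGGCG, namely Gtf2b, Gtf2e1, Taf4, Taf5 and Taf6, had a median of -2.23 and a range from -2.74 to -0.45. The 61 without it had -0.78. Taf5 and Taf6 hold TATAAA as well. The larger classes hardly differed: CCAAT had -0.82 in 26 members with it and -0.78 in 40 without. GGGCGG had -0.80 in 46 and -0.76 in 20, and CCGGAAG -0.81 in 24 and -0.78 in 42. A match says only that these letters are in the window.

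Signal of most of the machinery was lower 4 h after UVB, by widely different amounts. With irradiation and genotype as additive terms in limma, 64 of 76 tested members fell, 0 rose and 12 did not pass, where 69.4% of all genes tested fell and 0.703% rose. At an unadjusted p under 0.05, 66 members were lower and 0 higher. The share of all genes at that threshold is not given here, and the 69.4% is for adjusted calls. The members' median effect was -0.78 on the log2 scale, close to the -0.75 of all genes tested, and single members ran from -2.93 to 0.40. With all probe sets of a gene averaged, the members' median was -0.79 and that of all genes -0.61. On 70 of 76 members both irradiated arrays read below both unirradiated ones, as on 79.8% of all genes tested. On 1 member, Taf13, both read above, as on 1.44% of all genes tested. The share that fell also varied with mean signal. Under 100 units 100% of 10 members fell, and from 100 to 400 units 92.3% of 39. From 400 to 1600 units 78.3% of 23 fell, and above that 0% of 4. Of the 11351 genes matched to RefSeq, 52.2%, 82.8%, 79.6% and 52.7% fell in these classes. The model has 1 residual degree of freedom, the disagreement of the 2 genotypes, so its p-values do not measure a spread between cultures.

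As in the whole array, the direction of the smaller changes depended on the scaling. After quantile normalization 16 of 75 members fell and 16 rose, against 19.8% and 19.9% of all genes. After median centring 16 fell and 32 rose, against 14.9% and 36.6%. The members that fell under both scalings as well as on the deposited values are named as such below. For 5 members, Gtf2a1, Med1, Med9, Taf1d and Taf8, another probe set at or above the floor differed from the one used by over 1 on the log2 scale. With all probe sets of a gene averaged, Med9 and Taf1d passed as lower, at -0.99 and -0.64, and several effects were smaller, such as -1.37 for Gtf2e1, -1.25 for Tbp and -1.03 for Med17, whose second probe set was below the floor and counted as no change.

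**Figure D1:**
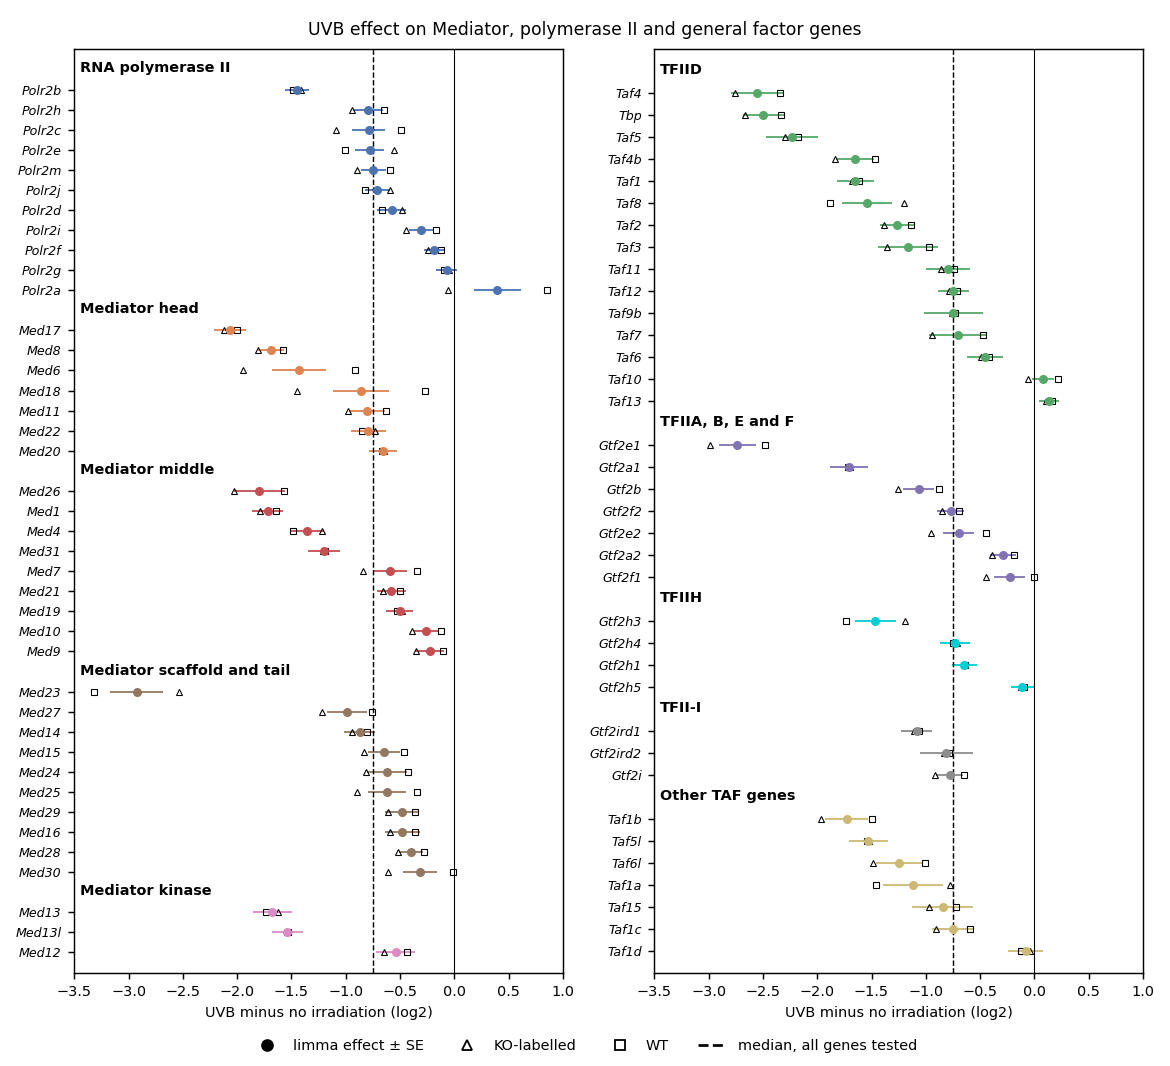
UVB effect on the log2 scale of the 76 members tested, by role. Filled points with bars are limma effects with their SE, triangles are the KO-labelled and squares the WT response, and the dashed line is the median of all genes tested (-0.75). Med23 lies lowest at -2.93 and Polr2a highest at 0.40.

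Among the subunits of the polymerase itself, 8 of 11 (72.7%) fell and 3 did not pass, with a median of -0.71. Of all genes tested 69.4% fell, and the count of each group below stands against that share, which varies with mean signal as given above. Of the catalytic pair Polr2b fell and Polr2a did not pass. Polr2a, the largest subunit, whose C-terminal repeats are phosphorylated through the transcription cycle, read 203 units in irradiated KO-labelled and 353 in irradiated WT cells, against 211 in unirradiated KO-labelled and 196 in unirradiated WT cells. The irradiated WT array was the high one and the other 3 were alike. Polr2a had a log2 difference of 0.40 (SE 0.21, limma adjusted p = 0.12), and its UVB response was -0.05 in KO-labelled and 0.85 in WT cells. Polr2b, the second-largest subunit, which forms the active site with Polr2a, read 516 units in irradiated KO-labelled and 409 in irradiated WT cells, against 1374 in unirradiated KO-labelled and 1147 in unirradiated WT cells. Both irradiated arrays were far below both unirradiated ones, and Polr2b fell by 1.45 in log2 units (SE 0.11, limma adjusted p = 8.39e-06). It was the lowest of the polymerase genes and the only one that also fell after quantile normalization and after centring.

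The remaining polymerase subunits fell moderately or not at all. Polr2g, which with Polr2d forms the stalk of the enzyme, read 1772 units in irradiated KO-labelled and 1396 in irradiated WT cells, against 1829 in unirradiated KO-labelled and 1491 in unirradiated WT cells. The arrays split by genotype rather than by irradiation, and Polr2g had a log2 difference of -0.07 (SE 0.10, limma adjusted p = 0.535). Polr2d itself fell by 0.57. Polr2f, one of the subunits shared by all 3 nuclear RNA polymerases, had -0.18 (limma adjusted p = 0.111), whereas Polr2e and Polr2h, which are shared in the same way, fell by 0.78 and 0.80. Polr2c and Polr2j, which pair with each other during assembly, fell by 0.79 and 0.71. Polr2i, a small subunit involved in accuracy of elongation, fell by 0.30, and Polr2m, a polymerase-bound protein that makes the enzyme depend on Mediator, by 0.75. After quantile normalization Polr2a, Polr2g and Polr2i rose, and of the others named here only Polr2b passed in either direction.

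**Figure D2:**
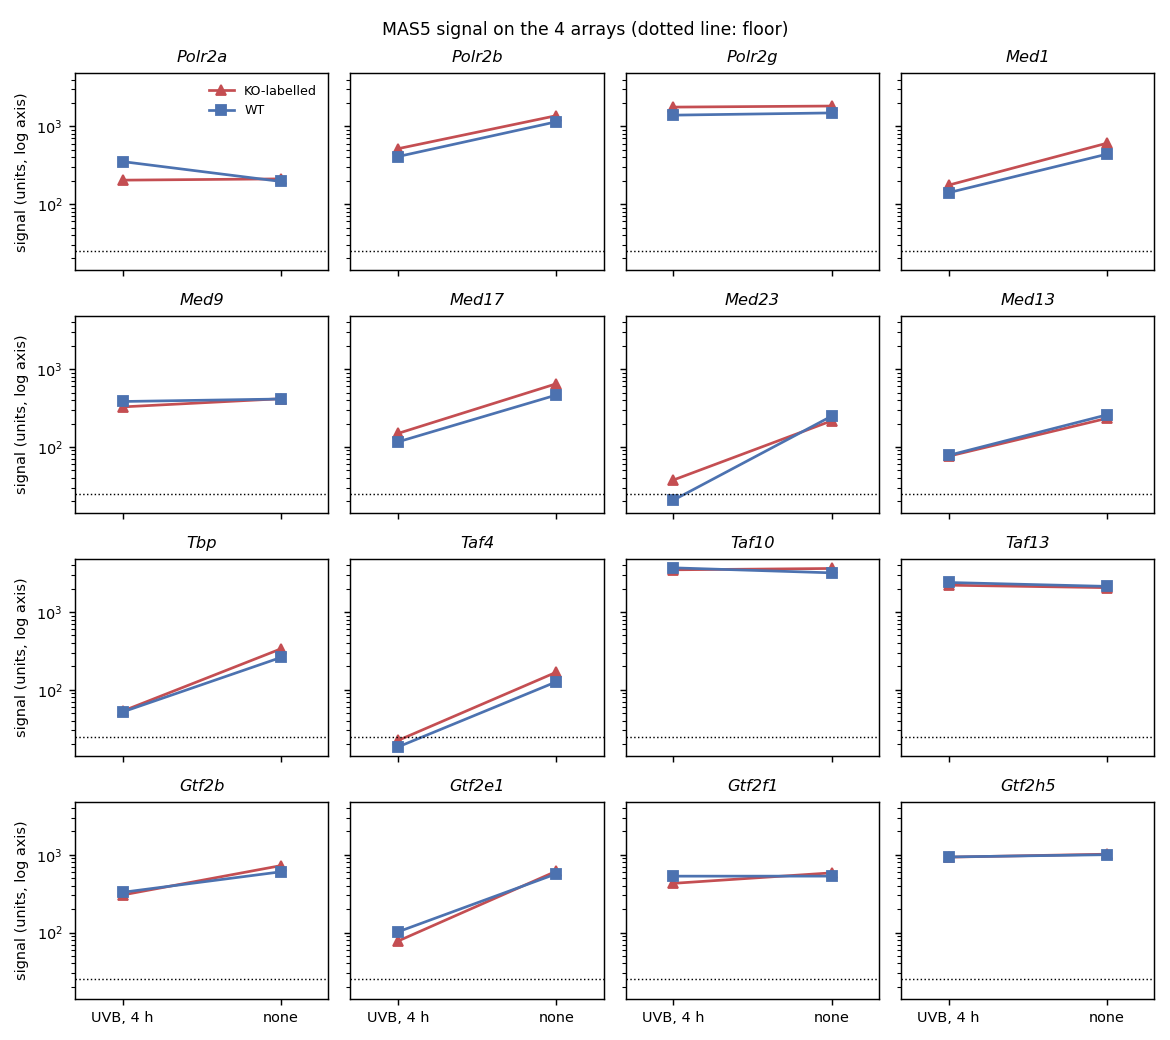
MAS5 signal of 16 members on the 4 arrays, on a log axis, with irradiated cells left of unirradiated cells, triangles for KO-labelled and squares for WT. The dotted line is the floor of 24.9 units. Med23, Tbp, Taf4 and Gtf2e1 are steep, while Polr2g, Taf10, Taf13 and Gtf2h5 are flat.

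In Mediator, 26 of 29 tested subunits (89.7%) fell, against 69.4% of all genes tested. None of the 29 rose, and Med9, Med10 and Med30 did not pass. The median was -0.79, and 0.21 after quantile normalization, where 7 fell and 6 rose, against 19.8% and 19.9% of all genes. The head, which contacts the polymerase, had 7 of 7 fall with a median of -0.86. Med17, the subunit around which the head is built, read 149 units in irradiated KO-labelled and 116 in irradiated WT cells, against 649.9 in unirradiated KO-labelled and 466 in unirradiated WT cells. Both irradiated arrays were well below both unirradiated ones, and Med17 fell by 2.06 in log2 units (SE 0.15, limma adjusted p = 5.92e-06). Med8 fell by 1.69, and Med8 and Med17 also fell under both other scalings.

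Other head subunits moved less or differed between the genotypes. Med6 fell by 1.43, Med11 by 0.80, Med22 by 0.79 and Med20 by 0.66, the smallest fall in the head. Med20 read 405 units in irradiated KO-labelled and 332 in irradiated WT cells, against 634 in unirradiated KO-labelled and 526 in unirradiated WT cells. Med18, which pairs with Med20 in the movable jaw of the head, read 98.8 units in irradiated KO-labelled and 128 in irradiated WT cells, against 269 in unirradiated KO-labelled and 154 in unirradiated WT cells. The unirradiated KO-labelled array was the high one, and Med18 fell by 0.86 in log2 units (SE 0.26, limma adjusted p = 0.015). This call was lost without the intensity trend, without genotype in the fit and when probe sets were averaged for all genes.

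The middle module had 7 of 9 subunits fall, with a median of -0.60. Med26, which links Mediator to elongation factors, read 35.8 units in irradiated KO-labelled and 38.3 in irradiated WT cells, against 146 in unirradiated KO-labelled and 113 in unirradiated WT cells. It was the lowest of the middle and fell by 1.80 in log2 units (SE 0.23, limma adjusted p = 0.000131). Med1, the subunit through which nuclear receptors contact Mediator, read 175 units in irradiated KO-labelled and 140.3 in irradiated WT cells, against 608 in unirradiated KO-labelled and 439 in unirradiated WT cells. The irradiated and unirradiated arrays did not overlap, and Med1 fell by 1.72 in log2 units (SE 0.14, limma adjusted p = 1.17e-05). Med1 and Med26 fell under both other scalings too. Med4 and Med31 fell by 1.35 and 1.20, and Med7, Med19 and Med21 by 0.50 to 0.60. Med9 read 327 units in irradiated KO-labelled and 384 in irradiated WT cells, against 417 in unirradiated KO-labelled and 414 in unirradiated WT cells. The arrays lay close together, and Med9 had a log2 difference of -0.23 (SE 0.14, limma adjusted p = 0.163); after quantile normalization Med9 and Med10 rose.

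The scaffold and the tail, which receives most activators, had 9 of 10 subunits fall, with a median of -0.62. Med23, a tail subunit contacted by the growth factor-responsive activator Elk1, read 37.5 units in irradiated KO-labelled and 20.6 in irradiated WT cells, against 217 in unirradiated KO-labelled and 249 in unirradiated WT cells. The irradiated WT value was below the floor, and Med23 had a log2 difference of -2.93 or lower (SE 0.25, limma adjusted p = 1.16e-05), the lowest value of all 76 members. Its fall was 5.79-fold in KO-labelled and at least 9.99-fold in WT cells. It was the only subunit of this group that also fell under both other scalings. Med14, the scaffold that joins the modules, read 234 units in irradiated KO-labelled and 233 in irradiated WT cells, against 450.1 in unirradiated KO-labelled and 406 in unirradiated WT cells, and fell by 0.87 in log2 units (SE 0.14, limma adjusted p = 0.000461). Med15, Med16, Med24, Med25, Med27, Med28 and Med29 fell by 0.40 to 0.99. Med30 read 505 units in irradiated KO-labelled and 547 in irradiated WT cells, against 773 in unirradiated KO-labelled and 552 in unirradiated WT cells. Here the unirradiated KO-labelled array stood above the other 3, and Med30 had a log2 difference of -0.31 (SE 0.16, limma adjusted p = 0.0977). After quantile normalization Med16, Med29 and Med30 rose.

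In the kinase module all 3 tested members fell. Med13, which tethers the module to the rest of Mediator, read 75.9 units in irradiated KO-labelled and 77.9 in irradiated WT cells, against 233 in unirradiated KO-labelled and 259 in unirradiated WT cells. The genotypes gave nearly the same values, and Med13 fell by 1.68 in log2 units (SE 0.18, limma adjusted p = 4.1e-05). Its paralog Med13l fell by 1.54, and both fell under both other scalings. Med12, the activator of the module's kinase, read 115 units in irradiated KO-labelled and 126 in irradiated WT cells, against 179.9 in unirradiated KO-labelled and 170.0 in unirradiated WT cells. Med12 fell by 0.54 in log2 units (SE 0.18, limma adjusted p = 0.022) but rose by 0.54 after quantile normalization, and its effect was above that of Med13 on the deposited values and under both other scalings. The module's own kinases and cyclin were counted from a list outside the members. Cdk8, a kinase of the module, read 177 units in irradiated KO-labelled and 159 in irradiated WT cells, against 741 in unirradiated KO-labelled and 636 in unirradiated WT cells, and fell by 2.03 in log2 units (SE 0.14, limma adjusted p = 4.85e-06). Its paralog Cdk19 fell by 0.98 and the cyclin gene Ccnc by 0.65.

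TFIID held steep falls and flat members. Of 15 tested genes 13 (86.7%) fell and 2 did not pass, against 69.4% of all genes tested. The median was -1.17, which is the value of Taf3 and a bound, as given below. After quantile normalization the median was -0.06 over the 14 genes then tested. Tbp, the TATA-binding protein, read 53.1 units in irradiated KO-labelled and 51.8 in irradiated WT cells, against 336 in unirradiated KO-labelled and 261 in unirradiated WT cells. Both irradiated arrays were at about the same low level, and Tbp fell by 2.50 in log2 units (SE 0.19, limma adjusted p = 7.74e-06), which was 6.33-fold lower in KO-labelled and 5.03-fold lower in WT cells. Taf4, a histone-fold subunit that holds TFIID together, read 22.2 units in irradiated KO-labelled and 18.3 in irradiated WT cells, against 168 in unirradiated KO-labelled and 126 in unirradiated WT cells. Both irradiated values were below the floor, so Taf4 had a log2 difference of -2.55 or lower (SE 0.24, limma adjusted p = 2.12e-05). Its probe set is marked as one that can detect several transcripts. Without such probe sets Taf4 still fell, with -1.77 or lower, since the irradiated WT value of its other probe set was below the floor. Taf5, the subunit with WD40 repeats, had -2.23 or lower, since its irradiated KO-labelled value was below the floor.

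Taf1, the largest TFIID subunit, read 98.6 units in irradiated KO-labelled and 79.8 in irradiated WT cells, against 316 in unirradiated KO-labelled and 245 in unirradiated WT cells, and fell by 1.65 in log2 units (SE 0.17, limma adjusted p = 3.48e-05). Taf4b fell by 1.65 and Taf2, which contacts the initiator element, by 1.26. Tbp, Taf1, Taf4, Taf4b and Taf5 fell under both other scalings. Taf3, which binds the histone mark of active promoters, read 6.41 units in irradiated KO-labelled and 3.70 in irradiated WT cells, against 63.9 in unirradiated KO-labelled and 48.9 in unirradiated WT cells. Both irradiated values were below the floor, so its log2 difference of -1.17 or lower (limma adjusted p = 0.00429) is a bound set by its dim signal.

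Taf8 read 64.0 units in irradiated KO-labelled and 45.3 in irradiated WT cells, against 147 in unirradiated KO-labelled and 167 in unirradiated WT cells, and fell by 1.54 in log2 units (SE 0.23, limma adjusted p = 0.000305); its probe set is marked as one that can detect several transcripts. Without such probe sets Taf8 had -0.48 and did not pass. Taf7, the partner of Taf1, read 36.8 units in irradiated KO-labelled and 35.9 in irradiated WT cells, against 70.6 in unirradiated KO-labelled and 49.7 in unirradiated WT cells. Its values lay close to the floor, and Taf7 fell by 0.71 in log2 units (SE 0.26, limma adjusted p = 0.0362). This call was lost with the lower floor, with the mean over its probe sets (-0.39) and without genotype in the fit. Taf6, Taf9b, Taf11 and Taf12 fell by 0.45 to 0.80. Taf10, a histone-fold subunit shared with the SAGA coactivator, read 3496 units in irradiated KO-labelled and 3706 in irradiated WT cells, against 3636 in unirradiated KO-labelled and 3194 in unirradiated WT cells. The irradiated and unirradiated arrays overlapped, and Taf10 had a log2 difference of 0.08 (SE 0.10, limma adjusted p = 0.49). Taf13, the histone-fold partner of Taf11, read 2216 units in irradiated KO-labelled and 2400.3 in irradiated WT cells, against 2060.1 in unirradiated KO-labelled and 2139 in unirradiated WT cells. The irradiated arrays were slightly the higher, by less than the test can separate, since Taf13 had a log2 difference of 0.14 (SE 0.09, limma adjusted p = 0.221). After quantile normalization Taf6, Taf10 and Taf13 rose.

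Of TFIIA, TFIIB, TFIIE and TFIIF, 5 of 7 tested genes (71.4%) fell, against 69.4% of all genes tested, with a median of -0.77. In TFIIE, TFIIA and TFIIF the partners of a complex are given side by side, without a test between them. Gtf2e1, the large subunit of TFIIE, read 77.6 units in irradiated KO-labelled and 102 in irradiated WT cells, against 616 in unirradiated KO-labelled and 570.4 in unirradiated WT cells. The irradiated and unirradiated arrays lay far apart, and Gtf2e1 fell by 2.74 in log2 units (SE 0.17, limma adjusted p = 3.98e-06). Its partner Gtf2e2 fell by 0.70. In TFIIA, Gtf2a1 fell by 1.71 and Gtf2a2 had -0.29 (limma adjusted p = 0.0531). In TFIIF, Gtf2f2 fell by 0.77, while Gtf2f1 read 429.9 units in irradiated KO-labelled and 532 in irradiated WT cells, against 587 in unirradiated KO-labelled and 533 in unirradiated WT cells. The WT arrays lay close together, and Gtf2f1 had a log2 difference of -0.23 (SE 0.14, limma adjusted p = 0.183). Gtf2b, which bridges TBP and the polymerase, read 305 units in irradiated KO-labelled and 329.8 in irradiated WT cells, against 727 in unirradiated KO-labelled and 606 in unirradiated WT cells, and fell by 1.07 in log2 units (SE 0.14, limma adjusted p = 0.00014). Gtf2a1 and Gtf2e1 fell under both other scalings, while Gtf2a2 and Gtf2f1 rose in both.

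In TFIIH, whose core subunits also serve in nucleotide excision repair of UVB lesions, 3 of 4 tested genes (75%) fell. Their median was -0.69, and 69.4% of all genes tested fell. Gtf2h3 read 123 units in irradiated KO-labelled and 84.7 in irradiated WT cells, against 281 in unirradiated KO-labelled and 283 in unirradiated WT cells, and fell by 1.46 in log2 units (SE 0.19, limma adjusted p = 0.000126). Gtf2h1 and Gtf2h4 fell by 0.64 and 0.73. Gtf2h5, the smallest subunit, needed for repair in human cells, read 935 units in irradiated KO-labelled and 939.9 in irradiated WT cells, against 1020.4 in unirradiated KO-labelled and 1005 in unirradiated WT cells. Its 4 arrays lay close together, and Gtf2h5 had a log2 difference of -0.11 (SE 0.11, limma adjusted p = 0.369). No TFIIH member fell after quantile normalization or centring, and Gtf2h5 rose in both. The helicase and kinase genes of TFIIH, which the symbol pattern leaves out, all fell, 5 of 5. Cdk7, the kinase that phosphorylates the polymerase tail, read 98.7 units in irradiated KO-labelled and 88.7 in irradiated WT cells, against 863 in unirradiated KO-labelled and 771 in unirradiated WT cells, and fell by 3.12 in log2 units (SE 0.14, limma adjusted p = 2.37e-06). The helicase genes Ercc2 and Ercc3 fell by 1.57 and 0.73.

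The pattern also took in genes outside these complexes. Gtf2i, Gtf2ird1 and Gtf2ird2 encode DNA-binding factors of the TFII-I family, and all 3 fell, Gtf2ird1 by 1.09, Gtf2ird2 by 0.81 and Gtf2i by 0.78. Gtf2i read 544 units in irradiated KO-labelled and 461 in irradiated WT cells, against 1024 in unirradiated KO-labelled and 724 in unirradiated WT cells. Taf1a, Taf1b, Taf1c and Taf1d belong to the TBP complex of RNA polymerase I, Taf5l and Taf6l to SAGA, and Taf15 to a family of RNA-binding proteins; 6 of these 7 fell. Taf1b read 62.3 units in irradiated KO-labelled and 73.4 in irradiated WT cells, against 244 in unirradiated KO-labelled and 207 in unirradiated WT cells, and fell by 1.73 in log2 units (SE 0.20, limma adjusted p = 6.47e-05). Taf1d read 191 units in irradiated KO-labelled and 172 in irradiated WT cells, against 196 in unirradiated KO-labelled and 187 in unirradiated WT cells, and had a log2 difference of -0.08 (SE 0.16, limma adjusted p = 0.671). Taf5l, Taf6l and Taf1c fell by 1.53, 1.25 and 0.75, and Taf1a and Taf15, with irradiated values below the floor, had -1.12 and -0.84 or lower. Taf1b fell under both other scalings and Taf1d rose in both. Without these 10 genes, 55 of 66 members fell and the median was -0.76.

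Members of genes longer than 30 kb had lower UVB effects than shorter ones, as a description without a test. Gene span, the distance on the genome from a gene's start to its end, was taken from RefSeq for all 76 tested members and ran from 1.31 to 205 kb. The 27 members spanning under 10 kb had a median UVB effect of -0.71, with 23 falling, and the 27 members from 10 to 30 kb had -0.66, with 19 falling. The 17 members from 30 to 100 kb had -1.45 and the 5 above 100 kb had -1.17, and all of them fell. The -1.17 was the value of Taf3, which is a bound. Over all genes tested the 4 classes had medians of -0.46, -0.72, -0.96 and -0.95, so members lay below the array's own median in every class but that from 10 to 30 kb. In the 4 classes 85.2%, 70.4%, 100% and 100% of members fell, against 49.8%, 71.3%, 81.9% and 76.3% of all genes. After quantile normalization 16 members under 30 kb rose and 5 fell, while 0 above 30 kb rose and 11 fell. The array as a whole turned in the same way, since 26.2% of all genes under 30 kb rose and 14% fell, and 11.1% of those from 30 kb rose and 28.4% fell.

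As a description across genes, which are not independent and share the same 4 arrays, Spearman's correlation of span with UVB effect was -0.48 over 76 members and -0.34 over 11351 genes tested. Mean signal moved with both: it correlated 0.51 with UVB effect and -0.33 with span over the members, against 0.07 and -0.08 over all genes. Its part in the relation was not tested. Single members departed from the relation. Med8 spans 6.54 kb and fell by 1.69, Tbp spans 17.5 kb and fell by 2.50, and Polr2a spans 24.6 kb and had the highest effect of all members tested.

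**Figure D3:**
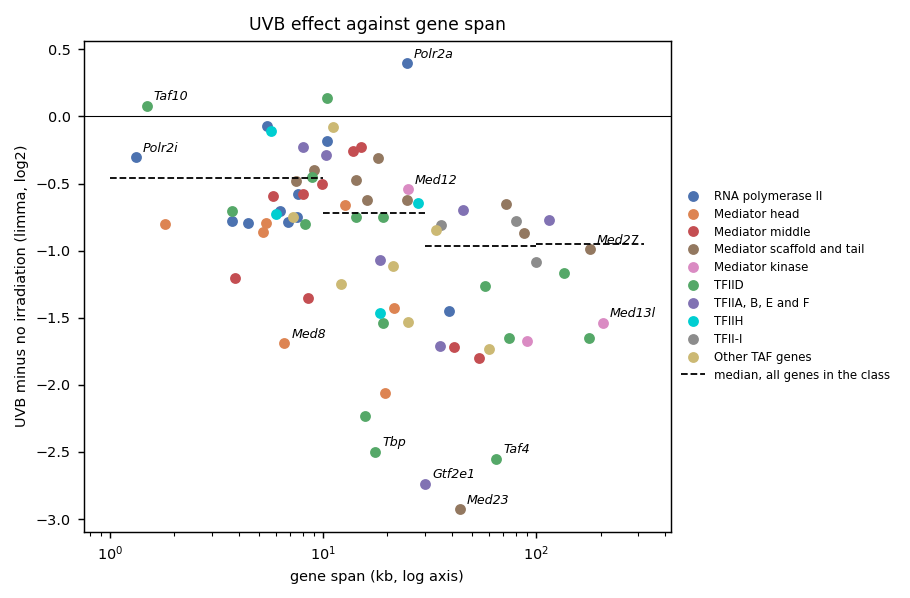
UVB effect (limma, log2) against gene span in kb on a log axis, 1 point per member, coloured by role. Dashed lines are the medians of all genes tested in each span class. All 22 members above 30 kb lie below 0, from -2.93 to -0.65 in the class up to 100 kb.

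The UVB response was also read in each genotype alone. In KO-labelled cells 30 of 76 members were at least 2-fold lower after UVB and 0 at least 2-fold higher, where 39.3% and 0.167% of all genes tested were. In WT cells the counts were 26 and 0, where 34.8% and 0.58% of all genes tested were. Both shares of lower members, 39.5% and 34.2%, lay near the background. 24 members of 76 were at least 2-fold lower in both genotypes, where 28.9% of all genes tested were. With 1 array per group these folds have no test.

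No difference between the genotypes passed the test for these genes. In limma's fit for genotype over both conditions 0 of 76 members passed, where 0.642% of all genes were lower and 0.967% higher. The median genotype effect was 0.09 for members and 0.11 for all genes tested. After quantile normalization and after centring 0 members passed as well, where 1.03% and 1.24% of all genes were lower and 0.543% and 0.569% higher. At an unadjusted p under 0.05, 6 members were higher and 0 lower as deposited. At that threshold 2 were lower and 3 higher after quantile normalization, and 3 lower and 0 higher after centring. The share of all genes at that threshold is not given here. No member was 2-fold apart after UVB, where 1.47% of all genes were lower and 1.41% higher in KO-labelled cells, or without irradiation, where 0.729% were lower and 1.63% higher. Without irradiation the KO-labelled signal was above the WT signal on 65 of 76 members (85.5%), against 73.1% of all genes tested, with a median log2 difference of 0.18 against 0.16 for all genes tested. After quantile normalization the KO-labelled signal was the higher on 53.3% of members and 49.4% of all genes, with medians of 0.03 and 0.00. The largest such difference was that of Med18, at 0.81.

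The UVB response was the more negative one in KO-labelled cells for most members. Of the 70 members with all 4 arrays at or above the floor, 54 (77.1%) had a lower response in KO-labelled than in WT cells, against 59.4% of all 9488 such genes. The median difference of the responses was -0.21 for members and -0.07 for all genes. These 70 differences share the same 4 arrays. The median was -0.10 and 0.02 after quantile normalization, and -0.14 and -0.01 after centring, and the share of members with the lower response was then 63% and 64.4%, against 47.2% and 51.1% of all genes. Past 2-fold, 2 members had the lower response in KO-labelled cells and 0 the higher, where 2.13% and 0.875% of all genes did. With 1 array per group the interaction has no residual and was not tested.

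Those past 2-fold were 2 head subunits. Med18 responded by -1.45 in KO-labelled and -0.27 in WT cells, a difference of -1.18, and most of it lay in the unirradiated KO-labelled array. Med6, a conserved head subunit, read 69.3 units in irradiated KO-labelled and 98.4 in irradiated WT cells, against 267 in unirradiated KO-labelled and 186 in unirradiated WT cells. The order of the genotypes turned over between the conditions, and its response was -1.94 in KO-labelled and -0.92 in WT cells, a difference of -1.03. After quantile normalization and after centring this difference was -0.96, short of 2-fold. A second, dimmer Med6 probe set gave -2.15 in KO-labelled and -1.86 in WT cells. On it the KO-labelled signal was the lower under both conditions. On the deposited values Polr2a followed with a difference of -0.90. In the other direction Taf8 differed by 0.68, Gtf2h3 by 0.55 and Polr2e by 0.45. Polr2e read 788 units in irradiated KO-labelled and 634 in irradiated WT cells, against 1157 in unirradiated KO-labelled and 1274 in unirradiated WT cells, and its probe set is marked as one that can detect several transcripts. Dimmer probe sets of Polr2e and Taf8 differed the other way. That of Polr2e gave -0.83 in KO-labelled and -0.63 in WT cells. That of Taf8 gave -0.78 or lower in KO-labelled cells, with the irradiated value below the floor, and -0.19 in WT cells.

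**Figure D4:**
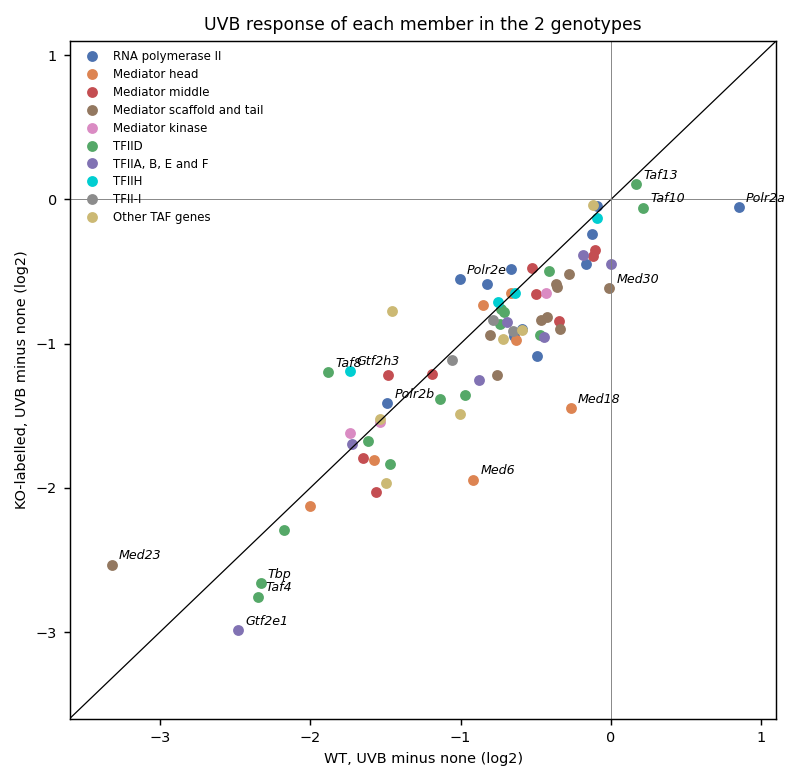
UVB response on the log2 scale of each member in KO-labelled (vertical) against WT cells (horizontal), coloured by role, with the line of equal response. Most points lie below the line, Med18, Med6 and Polr2a farthest, and Med23, Taf8, Taf1a, Gtf2h3 and Polr2e lie farthest above it, where Med23 and Taf1a hold a value raised to the floor.

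The genes around the machinery were lower after UVB as well, counted from lists of 113 genes outside the members, where 69.4% of all genes tested fell. Of the pausing and elongation factors 24 of 27 fell (median -0.88), with Cdk13, a kinase of the polymerase tail, lowest and falling by 2.70. Hexim1, the inhibitor of the elongation kinase P-TEFb, read 602 units in irradiated KO-labelled and 701 in irradiated WT cells, against 623 in unirradiated KO-labelled and 595 in unirradiated WT cells, and had a log2 difference of 0.09 (SE 0.13, limma adjusted p = 0.522). All 14 tail phosphatase and polymerase assembly genes fell (median -1.05), from Gpn3 by 0.46 to Ctdspl by 3.24. All 11 RNA polymerase I genes fell (median -0.85), from Znrd1 by 0.42 to Polr1b, its second-largest subunit, by 1.98.

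Of the RNA polymerase III genes 16 of 21 (76.2%) fell (median -0.96), against 69.4% of all genes tested. Bdp1, a subunit of the initiation factor TFIIIB, fell by 3.58, while Gtf3a, the 5S RNA gene factor TFIIIA, had a log2 difference of 0.24 (SE 0.11, limma adjusted p = 0.0863). Of the SAGA coactivator genes 12 of 14 fell (median -0.95), with Atxn7 lowest at -2.48 and Eny2 highest at -0.15, which did not pass. Of the genes for stalled polymerase and transcription-coupled repair 7 of 9 (77.8%) fell (median -0.85). Uvssa, which brings TFIIH to stalled polymerase in human cells, fell, with a log2 difference of -1.85 or lower and its irradiated WT value below the floor. Elob, an elongin subunit, had 0.00. In none of the 8 lists did a gene rise in limma, and 0 were higher at an unadjusted p under 0.05. Of all genes tested 0.703% rose after adjustment, and their unadjusted share is not given here. After quantile normalization 31 of these genes fell and 14 rose, where 19.8% and 19.9% of all genes did.

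**Figure D5:**
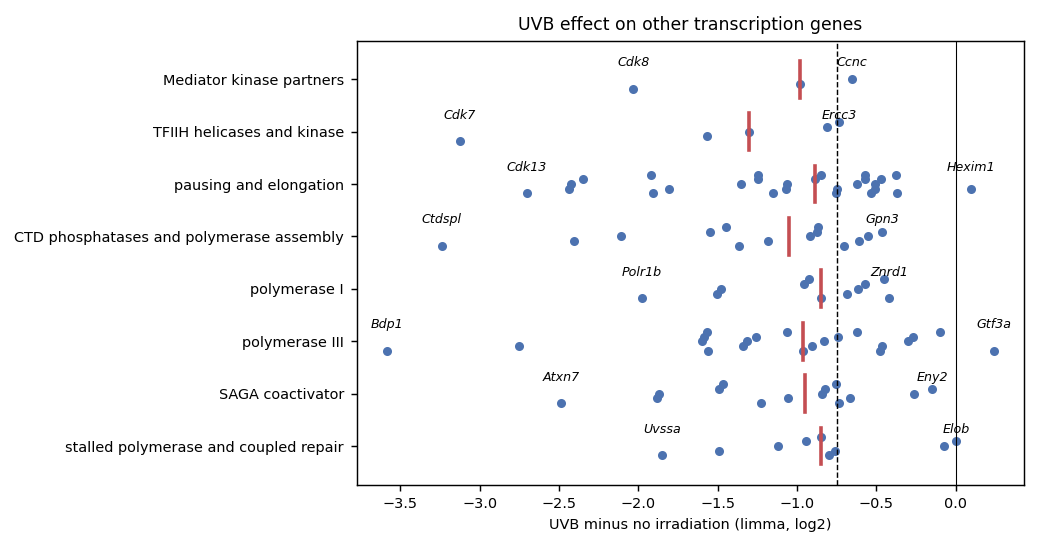
UVB effect (limma, log2) of 104 genes in 8 lists outside the members, 1 point per gene, with the median of each list as a red bar and the median of all genes tested as a dashed line. The lowest and highest gene of each list are named, and all 8 medians lie below the dashed line at -0.75.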

How the data were processed

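The authors deposited 1 table of linear MAS5 signal intensities for 4 arrays, per the submitters' processing notes, which name MAS5 without a version or scaling target. It holds 45101 probe sets, of which 34945 map to exactly 1 gene symbol in the platform annotation. RNA was labelled by 3′ in vitro transcription, per the labels' protocols. Values below the floor, the median over probe sets of mean signal, were raised to it, and log2 was taken. The 11379 genes averaging the floor or more were fitted in limma 3.58.1 (R 4.3.3) with irradiation and genotype as terms, an intensity trend and Benjamini-Hochberg adjustment over all genes at 0.05; the prior had 8.13 degrees of freedom. Single pairs of arrays have no test and count as changed at 2-fold. A fold or effect against a value below the floor is a bound. With 1 array in each group, the number of arrays sets the precision.

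Named members are the highest and lowest UVB effect in each role, those past a genotype threshold, the 3 largest differences of response in each direction and 9 well-known genes; other members are given by value alone. The members, lists, tests and alternatives were chosen with earlier results of these data known, and the count without TFII-I and other TAF genes was added after seeing the data. Gene spans and promoters come from RefSeq tables of GRCm38.p6, matched by gene ID for 80 and 70 members. Protein sequences were not used here. The alternatives were quantile normalization, median centring, a floor at the 25th or the 75th percentile of mean signal (9.38 and 129 units), averaging all probe sets of a gene, dropping those marked as detecting several transcripts, folds of 1.5 and 3, limma without the trend, and limma with the tested factor alone.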

Additional observations from a re-analysis of the deposited data

Results flagged for a closer look

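Polr2a and Taf10 are the 2 members, among those with all 4 arrays at or above the floor, whose signal moved in opposite directions after UVB in the 2 genotypes. The response of Polr2a was -0.05 in KO-labelled and 0.85 in WT cells, a difference of -0.90. A second, dimmer Polr2a probe set read 46.3 units in irradiated KO-labelled and 31.1 in irradiated WT cells, against 45.8 in unirradiated KO-labelled and 22.7 in unirradiated WT cells, a response of 0.01 in KO-labelled and 0.32 in WT cells with the irradiated and unirradiated values near the floor. After quantile normalization the response of Polr2a was 1.03 in KO-labelled and 1.75 in WT cells, and after centring 1.08 and 1.92, so the opposite signs hold on the deposited scale only, among the 3 scalings. The response of Taf10 was -0.06 in KO-labelled and 0.21 in WT cells, a difference of -0.27, and both responses were above 0 under the other scalings. With 1 array per group neither difference was tested.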

How the results depend on the processing

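The split between falling and rising members rests on the scaling. With quantile normalization 16 members fell and 16 rose in limma with a median of 0.0667, 7 were 2-fold lower and 2 higher in KO-labelled cells, 6 and 2 in WT cells, 1 and 2 had a 2-fold lower or higher response in KO-labelled cells, and 31 genes of the other lists fell and 14 rose. With median centring 16 members fell and 32 rose in limma with a median of 0.319, 5 were 2-fold lower and 6 higher in KO-labelled cells, 5 and 6 in WT cells, 1 and 2 had a 2-fold lower or higher response in KO-labelled cells, and 22 genes of the other lists fell and 33 rose. The signs of single named members turned with quantile normalization for Gtf2f1 (0.566), Gtf2h5 (0.507), Med12 (0.536), Med14 (0.0471), Med18 (0.208), Med20 (0.168), Med30 (0.451), Med9 (0.649), Taf1d (1.16) and Taf7 (0.263), and with centring for Gtf2b (0.0337), Gtf2f1 (0.875), Gtf2h5 (0.988), Gtf2i (0.319), Gtf2ird1 (0.0145), Med12 (0.559), Med14 (0.228), Med18 (0.242), Med20 (0.443), Med30 (0.787), Med9 (0.872), Polr2e (0.319), Taf1d (1.23) and Taf7 (0.394). The counts past a fold follow the floor and the threshold. Here and under the 2 scalings above they are given without the share of all genes, and so show nothing particular to the members. In the main setting 39.5% of members and 39.3% of all genes were 2-fold lower in KO-labelled cells, and 34.2% and 34.8% in WT cells. With the floor at the 75th percentile 19 members were 2-fold lower in KO-labelled and 15 in WT cells and 0 differed in response. With the floor at the 25th percentile 1 member was 2-fold higher in WT cells, 1 higher in KO-labelled than WT cells after UVB and 1 without irradiation, and 1 had the higher response. At 1.5-fold the lower members were 59 in KO-labelled and 48 in WT cells with 1 higher in WT, the genotypes differed after UVB by 1 lower and 2 higher and without irradiation by 1 higher, and 5 responses were lower and 1 higher. At 3-fold they were 15 in KO-labelled and 12 in WT cells, with 0 responses apart. With the mean over probe sets 1 response was 2-fold lower in KO-labelled cells and 1 gene of the other lists rose, and effects shrank by over 1.5 times for Gtf2e1 (-1.37), Med1 (-1.11), Med13 (-0.78), Med14 (-0.46), Med17 (-1.03), Polr2e (-0.50), Taf1 (-0.85), Taf7 (-0.39), Taf8 (-1.01) and Tbp (-1.25), while Med9 (-0.99) and Taf1d (-0.64) came to pass as lower. The cause of these differences beyond the change of scale, floor or threshold itself was not tested. The members' median stayed between -0.787 and -0.746 under the other floors and probe set choices, while that of all genes tested ran from -0.753 to -0.614. Limma without the trend and with the tested factor alone kept the side of the threshold for 29 and 28 of 30 named members; Med18 lost its call in both and Taf7 in the second. No paired analysis was possible because each group has 1 array and no replicate number, beyond the genotype term that the fit already holds.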

Other observations

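Second probe sets give a reading of 31 members that the choice of the brightest left out. Of 49 further probe sets at or above the floor, 7, from 5 genes, differed from the brightest by over 1 on the log2 scale in their mean UVB response, and 5 had the opposite sign. Med9, flat by its brightest probe set, read 31.4 units in irradiated KO-labelled and 24.5 in irradiated WT cells, against 92.1 in unirradiated KO-labelled and 97.0 in unirradiated WT cells on a dimmer one, a mean response of -1.76. The brightest Taf1d probe set gave -0.08, whereas 2 dimmer ones gave -1.61 and -1.63. Med1 was lower after UVB on 6 of its 7 probe sets at or above the floor, from -1.72 to -0.84, and had 0.08 on the dimmest. Med13l was lower after UVB on both of its probe sets at or above the floor, with -2.45 on the dimmer one, whose irradiated WT value was below the floor.

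Members that read below the floor were not tested. Gtf2a1l and Taf7l, germ cell relatives of Gtf2a1 and Taf7, read at most 12.3 and 27.5 units on any array. Med12l, a paralog of Med12, read 31.1 units in irradiated KO-labelled and 10.7 in irradiated WT cells, against 28.4 in unirradiated KO-labelled and 11.4 in unirradiated WT cells. It was above the floor in the KO-labelled cells alone, under both conditions. The summed signals of melanocyte and of fibroblast markers were also higher in KO-labelled cells under both conditions, though not that of every marker. Unirradiated, Pdgfra read 97.2 units in KO-labelled and 109 in WT cells. The keratinocyte sum was higher too, at 34660 against 34633 units without irradiation and 30242 against 28197 after UVB. Without irradiation 73.1% of all genes tested read higher in KO-labelled cells. The part of these in the reading of Med12l was not tested.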
